A study of Rattus norvegicus with 12 samples.

Results

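The genes described here belong to the interferon response and to the processing of antigens for display on the cell surface. The list named 36 genes, and 24 of them had a probe set among the 18957 detected probe sets of the series. A probe set is the group of array probes read as 1 value. Of the 24 genes, 23 were found by their gene symbol on the platform, and Ddx58, which the platform calls by the older symbol Rig1, was found by its gene identifier. Psme1 and Psme2 had 2 probe sets each, which made 26 in all, and the one with the highest mean over the 12 arrays stood for the gene. The other 12 genes, Bst2, Dhx58, Ifit1, Ifit3, Mx1, Mx2, Nlrc5, Oas1a, Parp14, Psmb8, Usp18 and Xaf1, had no probe set with their symbol and were not analysed here. By role the 24 genes comprised 2 of 3 listed sensors of foreign RNA, 5 of 6 transcription factors and regulators, 9 of 18 antiviral effectors and other induced genes, and 8 of 9 genes of antigen processing.

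Interferons are secreted proteins that warn cells of infection. Sensors in the cytosol detect foreign RNA and switch on interferon genes, secreted interferon acts through receptors and transcription factors, and these turn on induced genes whose products block viruses or help to cut proteins into peptides and load them on major histocompatibility complex (MHC) molecules. Muscle fibres normally carry little MHC class I, whereas MHC class II is mainly a property of macrophages and other antigen-presenting cells.

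The tissue was skeletal muscle from the hind legs of male Wistar rats, taken from newborns. Their dams received from day 1 of gestation a control diet (control), a low protein diet (low protein), or the low protein diet together with 2% w/v taurine in the drinking water (taurine group, which also ate low protein food). Each diet had 4 arrays, and 1 array held the pooled RNA of 3 brothers from a single dam. The dam was thus the replicate, and differences among littermates cannot be seen. No group received taurine with control food, so an effect of taurine alone cannot be told apart from its effect on the low protein diet.

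Values are log2 expression levels, on which a difference of 1 is a doubling. Differences were tested with limma, which fits all probe sets and draws on their common spread, and p-values were adjusted by the Benjamini-Hochberg method over all 18957 probe sets, with a threshold of 0.05. Array medians ran from 7.66 to 7.67 in control, from 7.73 to 7.75 with low protein and from 7.71 to 7.74 in the taurine group. The 9 muscle markers found averaged between 11.92 and 12.14 on all arrays. Of these, Myog passed as higher with low protein (0.27, limma adjusted p = 0.0372). Control 3 and control 4 stood apart: the mean of 11 hepatocyte markers was 10.44 and 11.33 there, against 6.67 and 6.98 in control 1 and control 2 and between 6.73 and 8.04 in the other groups. Each of the 24 genes and of the other pathway genes called against control is therefore also given without these arrays, in the account of that gene or its group. Of the hepatocyte markers, Hnf4a, Mbl2 and Proc passed as lower with low protein (limma adjusted p = 0.0313, 0.0328 and 0.0437). Hnf4a read 7.61 and 8.89 in control 3 and control 4, against 6.71 and 6.83 in control 1 and control 2. Mbl2 and Proc were likewise highest in control 3 and control 4. Myog had its lowest values there (9.42 and 9.26, against 9.61 and 9.55). No fit without these arrays is given for Hnf4a, Mbl2, Proc and Myog. In such bulk tissue, fewer cells of a type and less RNA per cell cannot be told apart.

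The stretch around the transcription start shows which of the genes carry the letters that interferon-activated factors are known to bind. The interferon-stimulated response element is bound by complexes that hold Irf9 and by other IRF proteins, and was searched as GAAANNGAAA on both strands. The gamma-activated site is a motif of genes that respond to interferon gamma, and was searched as TTCNNNGAA, which reads the same on both strands. RefSeq promoter sequences (build GRCr8, 250 bases before to 50 after the start) were at hand for 21 of the 24 genes, all except Ddx58, Ifit2 and Isg15. Of these, 13 (61.9%) held the response element core, against 3.92% of 33469 rat promoters of the same length. The gamma-activated core stood in 3 (14.3%), Irf1, Irf8 and Irf9, against 8.87% of all. Stat2, Oasl, Psmb9, Psme1 and Cd74 held neither. The match nearest before the start is shown for each of the 13 genes, read 5′ to 3′ along the gene, with the core in capitals. A core that reads TTTC at both ends lies on the opposite strand. These lines show the letters that the 13 genes share, of which 1, Ifih1, passed in a comparison given below.
Ifih1, chr3:67684008-67684037, minus strand: gaagagaatcGAAACAGAAAccgatgtgtg
Irf7, chr1:205800073-205800102, minus strand: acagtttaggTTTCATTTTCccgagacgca
Rsad2, chr6:48788248-48788277, minus strand: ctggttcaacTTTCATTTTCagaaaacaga
Ifi27, chr6:128355218-128355247, plus strand: gagagctgggGAAATGGAAActtacctcat
Ifi44, chr2:243303847-243303876, minus strand: gcacactgagTTTCAGTTTCatttcccagg
Gbp2, chr2:234005686-234005715, plus strand: agttttttagTTTCACTTTCattgtcttaa
Trim21, chr1:166399364-166399393, minus strand: agaggaaactGAAAGTGAAAttagactgcg
Cxcl10, chr14:15988816-15988842, plus strand: cgctttgGAAAGTGAAActtaactcac
Psme2, chr15:33052785-33052814, minus strand: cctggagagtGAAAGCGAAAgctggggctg
Tap1, chr20:4668645-4668674, minus strand: cggtggctgcTTTCGGTTTCttcttcctct
Tap2, chr20:4652318-4652347, minus strand: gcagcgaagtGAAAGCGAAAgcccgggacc
Tapbp, chr20:4967878-4967907, minus strand: gagggaaaatGAAAGTGAAAggaaacagac
B2m, chr3:129549170-129549199, plus strand: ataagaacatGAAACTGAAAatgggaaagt

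A match is a description of the letters, not a site of binding or a cause. The median difference between low protein and control was 0.07 in the 13 genes with the response element core and 0.11 in the 8 without it, and against control in the taurine group it was 0.07 and 0.06. The 3 genes that changed differed in these letters: Ifih1 held the response element core, Irf9 the gamma-activated core, and Oasl neither. The promoters of Irf9, with the gamma-activated core in capitals, and of Oasl, which holds no such letters in this window, are shown for comparison with the lines above.
Irf9, chr15:33065586-33065885, plus strand: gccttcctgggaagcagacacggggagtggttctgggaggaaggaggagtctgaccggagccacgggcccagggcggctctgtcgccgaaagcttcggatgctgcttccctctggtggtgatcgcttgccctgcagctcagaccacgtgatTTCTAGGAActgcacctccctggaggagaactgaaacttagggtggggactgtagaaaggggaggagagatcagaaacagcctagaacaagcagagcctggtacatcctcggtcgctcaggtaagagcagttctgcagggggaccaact
Oasl, chr12:47356243-47356542, minus strand: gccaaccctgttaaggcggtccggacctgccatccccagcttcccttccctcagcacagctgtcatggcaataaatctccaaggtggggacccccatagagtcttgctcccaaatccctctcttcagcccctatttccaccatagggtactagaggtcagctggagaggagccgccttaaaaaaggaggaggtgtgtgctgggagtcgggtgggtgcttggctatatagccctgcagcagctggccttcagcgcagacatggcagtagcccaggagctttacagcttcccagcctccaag

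Most of these genes did not pass the test for either diet. The mean signal of 17 of the 24 probe sets, those of Oasl and Ifih1 included, lay in the lower part of the array, below the median probe set, and signals of different genes are not compared here as amounts of RNA. With low protein, Irf9 rose and Oasl fell against control, and the other 22 did not pass. With low protein plus taurine, Ifih1 rose against control and the other 23 did not pass. Between the taurine and the low protein group, 0 of 24 passed. The 1 rise among 24 (4.17%) with low protein stands beside a background of 21.8% of all probe sets that rose, and the 1 fall (4.17%) beside 11.9% that fell. In the taurine group the 1 rise (4.17%) stands beside 10.2%, and the 0 falls beside 3.6%. The share of the genes called as higher with low protein was below that background, and among probe sets with a single gene symbol the background was 26.4% higher and 6.25% lower. No probe set of the array passed between the taurine and the low protein group, where the background is 0% in each direction. At an unadjusted limma p under 0.05 that last comparison had 3 of the 24 genes, Oasl and Rsad2 higher and Ifi27 lower in the taurine group, against 10.8% of all probe sets. The methods' t-test, unadjusted, had 1 of 24, Oasl, against 10.3% of all. Against control the unadjusted limma counts were 4 of 24 with low protein, beside 47.6% of all probe sets, and 4 of 24 in the taurine group, beside 35.3%.

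The direction of the small shifts from control was mostly upward, as it was over the whole array. The log2 difference from control was above 0 for 17 of 24 genes with low protein (median 0.09, against 0.07 over all probe sets) and for 20 of 24 in the taurine group (median 0.07, against 0.06 over all probe sets). Over all 18957 probe sets, 11665 and 11869 were above 0 in these 2 comparisons. Among the 11721 probe sets with a single gene symbol, 8422 and 8457 were above 0, with medians of 0.11 and 0.09. These medians were above those of the 24 genes. The 2 comparisons share the control arrays. Against low protein, 15 of 24 were above 0 in the taurine group (median 0.05, against 0.00 over all). There, 9734 of 18957 probe sets were above 0, and 5486 of the 11721 with a single gene symbol (median -0.01). The size of these medians and their distance from the whole array moved with the scaling. With low protein the median of the 24 genes was 0.01 after median centring (all probe sets -0.01), 0.04 after cyclic loess (0.00) and 0.05 after quantile normalization (0.03). The same median in the taurine group was 0.01 after median centring (0.00), 0.07 after cyclic loess (0.00) and 0.09 after quantile normalization (0.02). The same centring moved the split of calls over the whole array from 4127 higher and 2263 lower with low protein to 1506 higher and 3616 lower, and from 1934 higher and 682 lower in the taurine group to 599 higher and 1223 lower. Cyclic loess gave 945 higher and 1619 lower with low protein, and 333 higher and 804 lower in the taurine group. The 1 rise in the taurine group, Ifih1, then stood beside a background of 1.76%, and without control 3 and control 4 beside 2.07%, so the relation of that share to the background turned with the setting.

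**Figure D1:**
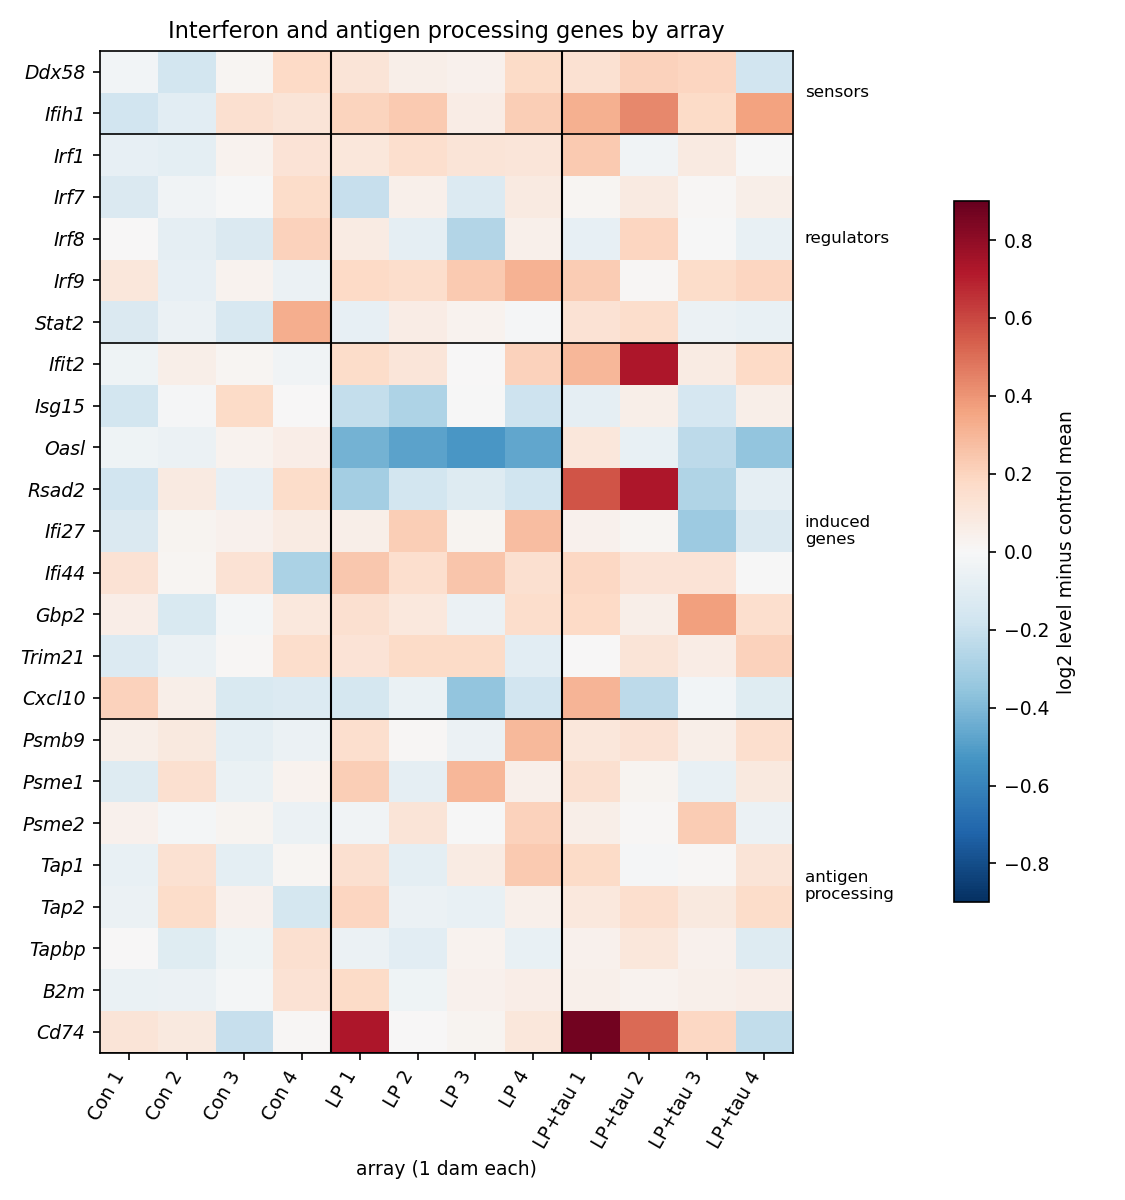
Log2 level of the 24 genes (rows, grouped by role) on the 12 arrays (columns, 1 dam each) as the difference from the control mean of the gene, red above and blue below. Oasl is blue in all 4 low protein arrays, while Rsad2 is reddest in LP+tau 1 and LP+tau 2, arrays 1 and 2 of the taurine group.

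Among the sensors, Ifih1 (probe set 10845708) encodes MDA5, which recognises long double-stranded RNA. Its level was 6.38, 6.46, 6.70 and 6.67 in control 1 to 4. In low protein 1 to 4 it was 6.75, 6.79, 6.62 and 6.78, and in taurine 1 to 4 it was 6.87, 6.99, 6.73 and 6.91. All 4 taurine arrays lay above all 4 controls, and low protein 3 was the 1 low protein array within the control range. The mean was 6.55 ± 0.16 in control, 6.73 ± 0.08 with low protein and 6.88 ± 0.11 in the taurine group (SD, n = 4 each). Ifih1 thus rose by 0.32 in the taurine group (1.25-fold, SE 0.08, 95% interval 0.15 to 0.50, limma adjusted p = 0.0261). With low protein the difference was 0.18 (limma adjusted p = 0.097), and between the taurine and low protein groups it was 0.14 (limma adjusted p = 0.536). Control 1 and control 2 had the lowest values, and leaving out control 3 and control 4 gave a difference of 0.31 with low protein (limma adjusted p = 0.0254) and of 0.45 in the taurine group (limma adjusted p = 0.0137). The call with taurine was lost when taurine 1 (limma adjusted p = 0.064), taurine 4 (0.0627) or control 1 (0.0577) was left out, and with median centring (difference 0.26, limma adjusted p = 0.063).

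Ddx58 (probe set 10875988) encodes RIG-I, the sensor of short double-stranded RNA with a triphosphate end. It averaged 6.65 ± 0.14 in control, 6.74 ± 0.06 with low protein and 6.74 ± 0.18 in the taurine group (SD, n = 4). Its difference from control was 0.09 in both groups and passed in neither (limma adjusted p = 0.42 with low protein and 0.482 in the taurine group).

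Among the regulators, Irf9 (probe set 10780433) is the DNA-binding part of the complex with Stat2 that carries the type I interferon signal. It stood at 7.74, 7.57, 7.68 and 7.59 in control 1 to 4. The low protein arrays read 7.82, 7.81, 7.88 and 7.96, and the taurine arrays 7.88, 7.65, 7.81 and 7.83. Every low protein array lay above every control, whereas taurine 2 lay within the control range. The mean went from 7.64 ± 0.08 in control to 7.87 ± 0.07 with low protein and 7.79 ± 0.10 in the taurine group (SD, n = 4). The rise with low protein was 0.22 (1.17-fold, SE 0.06, 95% interval 0.08 to 0.36, limma adjusted p = 0.0209). In the taurine group the difference from control was 0.15 (limma adjusted p = 0.114) and that from low protein was -0.07 (limma adjusted p = 0.683). The rise was sensitive to scaling: it was 0.11 after cyclic loess (limma adjusted p = 0.249), 0.14 after quantile normalization (0.127) and 0.14 after median centring (0.106). It also missed the threshold without control 3 and control 4 (0.21, limma adjusted p = 0.0858), without low protein 3 (limma adjusted p = 0.0512) and without low protein 4 (limma adjusted p = 0.053).

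The partner of Irf9, Stat2 (probe set 10893067), differed from control by 0.00 with low protein and by 0.04 in the taurine group (limma adjusted p = 0.982 and 0.771). Irf1, an early factor induced by interferon gamma, averaged 7.15 ± 0.10, 7.27 ± 0.02 and 7.22 ± 0.12 in control, low protein and taurine arrays (SD, n = 4), a difference of 0.12 with low protein (limma adjusted p = 0.168). Irf7, the main amplifier of type I interferon, differed by -0.05 with low protein and by 0.04 in the taurine group. Irf8, a factor of macrophage and dendritic cell development, differed by -0.06 and 0.01. For Stat2, Irf1, Irf7 and Irf8 no comparison passed.

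Oasl was the gene of the antiviral effectors that fell. Its product is related to the oligoadenylate synthetases, and in humans it lacks their enzyme activity and strengthens signalling by RIG-I. The level of Oasl (probe set 10762740) was 6.66, 6.65, 6.74 and 6.77 in control 1 to 4. It was 6.28, 6.22, 6.18 and 6.24 in low protein 1 to 4, and 6.80, 6.64, 6.47 and 6.35 in taurine 1 to 4. The low protein arrays lay below all other 8 arrays, and the taurine arrays ran from above the highest control to just above the highest low protein array. Oasl averaged 6.70 ± 0.06 in control, 6.23 ± 0.04 with low protein and 6.56 ± 0.20 in the taurine group (SD, n = 4). With low protein it fell by 0.47 (0.720 of control, SE 0.08, 95% interval -0.65 to -0.30, limma adjusted p = 0.00492). In the taurine group its difference from control was -0.14 (limma adjusted p = 0.236). Against low protein the difference was 0.33 (1.26-fold, 95% interval 0.16 to 0.51), with an unadjusted limma p of 0.00146 and an adjusted p of 0.347.

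The fall of Oasl with low protein was -0.43 when control 3 and control 4 were left out (limma adjusted p = 0.0212) and -0.39 after cyclic loess (limma adjusted p = 0.0133). It was past the threshold in 23 of 23 alternative settings that held the gene, with differences from -0.56 to -0.38. Some of these settings, such as leaving out taurine arrays, leave the difference as it was. The authors' deposited table holds 895 probe sets, beside 18957 detected in the whole series. It was chosen from the same arrays and is not an independent reading. Of the 24 genes, 1 was in that table, Oasl. In the authors' deposited table its group means on the linear intensity scale are 104.3 in control, 75.05 with low protein and 94.59 in the taurine group, the ratio to control is 0.7199 and 0.9073, and it is marked as fully rescued by taurine, as are 88 probe sets in all. The p-value of low protein against taurine in the authors' deposited table, 0.001038, is not adjusted for the number of probe sets.

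**Figure D2:**
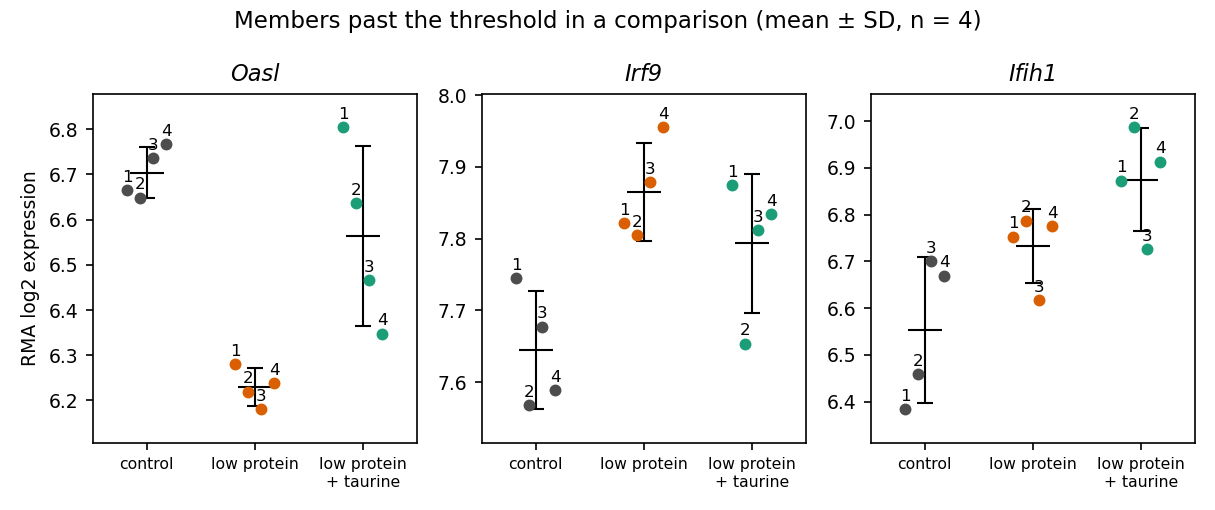
RMA log2 expression (vertical axis, 1 scale per gene) of Oasl, Irf9 and Ifih1 on each array, with the number of the array beside its point and bars for mean ± SD (n = 4) in control, low protein and low protein plus taurine. The low protein arrays of Oasl, between 6.18 and 6.28, lie below all others, and the 4 taurine arrays of Oasl spread from 6.35 to 6.80.

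The single B cell marker found, Cd79b (1 of 4 listed), also passed as lower with low protein, as did 11.9% of all probe sets. It ran from 7.24 to 7.41 in control, from 6.98 to 7.03 with low protein and from 7.08 to 7.29 in the taurine group, and fell by 0.33 with low protein (limma adjusted p = 0.00463, and 0.0195 without control 3 and control 4). Among the taurine arrays, taurine 4 was the highest for Cd79b (7.29), whereas it was the lowest for Oasl (6.35), so Cd79b did not follow Oasl there. The part of Cd79b in the fall of Oasl was not tested. The mean of the 11 macrophage markers was between 7.83 and 8.14 in control, 7.98 and 8.18 with low protein and 8.02 and 8.31 in the taurine group, with 0 of 11 passing in either comparison with control. The mean of the 5 endothelial markers was between 8.96 and 9.13 in control and between 9.22 and 9.29 with low protein, and Tie1, Kdr and Esam passed as higher. Leaving out control 3 and control 4 lost the call of Kdr (limma adjusted p = 0.23) and kept those of Tie1 (0.0306) and Esam (0.0428), and cyclic loess lost all 3 (0.35, 0.581 and 0.201 for Tie1, Kdr and Esam). Esam also passed as higher in the taurine group (0.19, limma adjusted p = 0.0429), but not without control 3 and control 4 (0.196). The part of these endothelial markers in the rise of Irf9 was not tested. The dendritic cell marker found, Flt3 (1 of 4 listed), lay between 6.66 and 6.68 in control and between 6.40 and 6.65 with low protein and did not pass the test. Means of the 3 common leukocyte markers lay between 6.99 and 7.38 in control and between 7.14 and 7.30 with low protein, and those of the 3 T and NK cell markers between 6.69 and 6.85 and between 6.67 and 6.98. Of the latter, Cd2 and Cd8a averaged 6.06 and 6.13 over all arrays, among the lowest signals of the array, and Cd4 averaged 8.34. That list mean therefore says little about T and NK cells. The mean of the 5 neutrophil markers found ranged over the arrays from 6.29 to 8.66 in control and from 6.27 to 6.52 with low protein, and that of the 4 erythroid markers found from 8.63 to 9.9995 and from 8.42 to 8.66. Camp, Hbb-b1 and Klf1 of these lists passed as lower, but without control 3 and control 4, where Camp stood at 6.88 and 7.85 against 6.06 and 5.98 in control 1 and control 2, only Klf1 passed (limma adjusted p = 0.0607 for Camp, 0.0784 for Hbb-b1 and 0.0469 for Klf1).

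Ifi44, an interferon-induced protein with a weakly known role, was higher in every low protein array than in every control without passing the test. It read 6.92, 6.80, 6.92 and 6.50 in control 1 to 4, 7.03, 6.94, 7.03 and 6.93 in low protein 1 to 4, and 6.97, 6.91, 6.91 and 6.78 in taurine 1 to 4. Control 4 was the lowest of all arrays, and the gap between the highest control and the lowest low protein array was small. The difference of 0.20 with low protein had a limma adjusted p of 0.0858, and 0.0482 with the replicate number as a block. Ifi44 and Irf9 made 2 of 24 genes whose low protein arrays all lay above the controls, where the background is 22.2%, and Oasl made 1 whose arrays all lay below, where it is 10.6%.

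Ifit2 (probe set 10714900), a protein that limits the translation of viral RNA, was the other gene besides Ifih1 that was higher in every taurine array than in every control. Its control arrays 1 to 4 read 6.43, 6.52, 6.48 and 6.43, the low protein arrays 6.63, 6.57, 6.46 and 6.67, and the taurine arrays 6.76, 7.19, 6.54 and 6.64. Taurine 2 was far the highest of all arrays, and taurine 3 exceeded the highest control by little. The mean was 6.46 ± 0.04, 6.58 ± 0.09 and 6.78 ± 0.29 in control, low protein and taurine arrays (SD, n = 4). The difference from control of 0.32 in the taurine group did not pass (limma adjusted p = 0.0677), and it was 0.13 without taurine 1 and taurine 2 (limma adjusted p = 0.246), a pair of arrays chosen after their high Ifit2 and Rsad2 had been seen. Ifih1 and Ifit2 made 2 of 24 genes without overlap upward and 0 downward in the taurine group, where the background is 14.2% and 6.01%. Against low protein 1 gene, Oasl, had no overlap upward, where the background is 3.35%, and 0 had none downward (3.51%).

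Rsad2 (probe set 10889399), which encodes viperin, an enzyme that makes a chain-terminating nucleotide against viral polymerases, had one of the 2 widest ranges over the 12 arrays. It read 6.26, 6.52, 6.36 and 6.60 in control 1 to 4, 6.13, 6.27, 6.32 and 6.25 in low protein 1 to 4, and 6.998, 7.16, 6.16 and 6.36 in taurine 1 to 4. Taurine 1 and taurine 2 were above all other arrays, while taurine 3 and taurine 4 lay within the range of the other diets. The taurine mean was 6.67 with an SD of 0.49, against an SD of 0.15 in control and 0.08 with low protein (n = 4 each). The difference between taurine and low protein was 0.43 (95% interval 0.03 to 0.82, limma adjusted p = 0.44). Without taurine 1 and taurine 2 it was 0.02. This pair was chosen after its high Rsad2 had been seen, so a smaller difference was bound to follow and tests nothing.

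**Figure D3:**
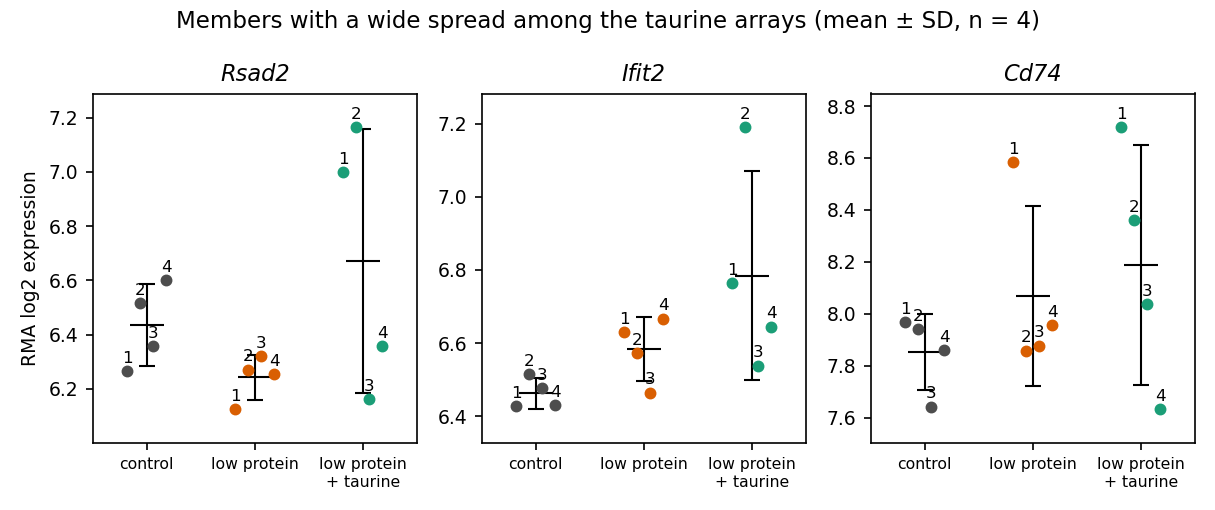
RMA log2 expression (vertical axis, 1 scale per gene) of Rsad2, Ifit2 and Cd74 on each array, with the number of the array beside its point and bars for mean ± SD (n = 4) by diet. In Rsad2, taurine 1 (6.998) and taurine 2 (7.16) lie above all other arrays, and in Cd74 low protein 1 (8.58) lies apart from the other low protein arrays.

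The other induced genes passed in no comparison. Isg15, a ubiquitin-like protein that is attached to other proteins in the antiviral state, averaged 6.17 ± 0.14 in control, 6.003 ± 0.12 with low protein and 6.14 ± 0.10 in the taurine group (SD, n = 4), and its difference of -0.17 with low protein had a limma adjusted p of 0.113 (-0.25 and 0.0384 with median centring). Cxcl10, a chemokine that attracts activated T cells, differed by -0.19 with low protein (limma adjusted p = 0.205) and by -0.02 in the taurine group. Gbp2, a GTPase that acts on the vacuoles of intracellular microbes, differed by 0.08 with low protein and by 0.19 in the taurine group (limma adjusted p = 0.402 and 0.108). Trim21, a cytosolic receptor of antibodies and a ubiquitin ligase, differed by 0.09 and 0.10. Ifi27, a small interferon-induced membrane protein, had a mean of 8.89 ± 0.09 in control, 9.03 ± 0.13 with low protein and 8.79 ± 0.17 in the taurine group (SD, n = 4). Its difference of -0.24 between taurine and low protein had an unadjusted limma p of 0.0168 and an adjusted p of 0.402. Of these 9 effectors and induced genes, the low protein difference was above 0 in 5 and below 0 in 4. Over all probe sets, 11665 of 18957 were above 0.

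None of the 8 antigen processing genes, each read by its chosen probe set, passed in any of the 3 comparisons. The smallest limma adjusted p was 0.272 with low protein, 0.251 in the taurine group and 0.642 between them. At an unadjusted limma p under 0.05 the chosen probe sets of the 8 genes also numbered 0 with low protein, in the taurine group and between them. All probe sets stood at 47.6%, 35.3% and 10.8%. By the methods' t-test, unadjusted, the chosen probe sets numbered 0 as well, beside 42.4%, 29% and 10.3%. The difference from control was above 0 in 7 of 8 with low protein (median 0.08) and in 8 of 8 in the taurine group (median 0.07). Over probe sets with a single gene symbol, 8422 and 8457 of 11721 were above 0 (medians 0.11 and 0.09). B2m, the light chain of MHC class I, averaged 11.08 ± 0.09 in control, 11.14 ± 0.09 with low protein and 11.13 ± 0.01 in the taurine group (SD, n = 4). Tap1 and Tap2, which form the pump that moves peptides into the endoplasmic reticulum, differed by 0.09 and 0.03 with low protein and by 0.07 and 0.12 in the taurine group. Tapbp (tapasin), which holds class I molecules at that pump, differed by -0.05 and 0.02. Psmb9, a catalytic subunit of the immunoproteasome, differed by 0.10 and 0.11. Leaving Cd74 aside, the 95% intervals of the other 7 genes lay between -0.19 and 0.31 with low protein, between -0.14 and 0.29 in the taurine group and between -0.26 and 0.26 between the groups, so larger changes of these probe sets fall outside the intervals of these arrays.

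Psme1 and Psme2 encode the subunits of the proteasome activator that opens the proteasome gate. The chosen probe set of Psme1 (10780396) differed by 0.12 with low protein and by 0.05 in the taurine group, while the other one (10795460) differed by -0.16 and -0.22 (limma adjusted p = 0.101 and 0.056), so the 2 probe sets pointed in opposite directions and the direction of Psme1 is uncertain. For Psme2 both pointed upward: the chosen one (10783805) differed by 0.07 and 0.06, and the other (10793365) by 0.15 and 0.22 (limma adjusted p = 0.258 and 0.139). None of these 4 probe sets passed after adjustment. Unadjusted, the other Psme1 probe set had a limma p of 0.0474 with low protein and 0.00885 in the taurine group. For the other Psme2 probe set it was 0.0487 in the taurine group. All taurine arrays of that Psme1 probe set lay below all controls, where the background is 6.01%. Those of that Psme2 probe set lay above all controls, where it is 14.2%.

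**Figure D4:**
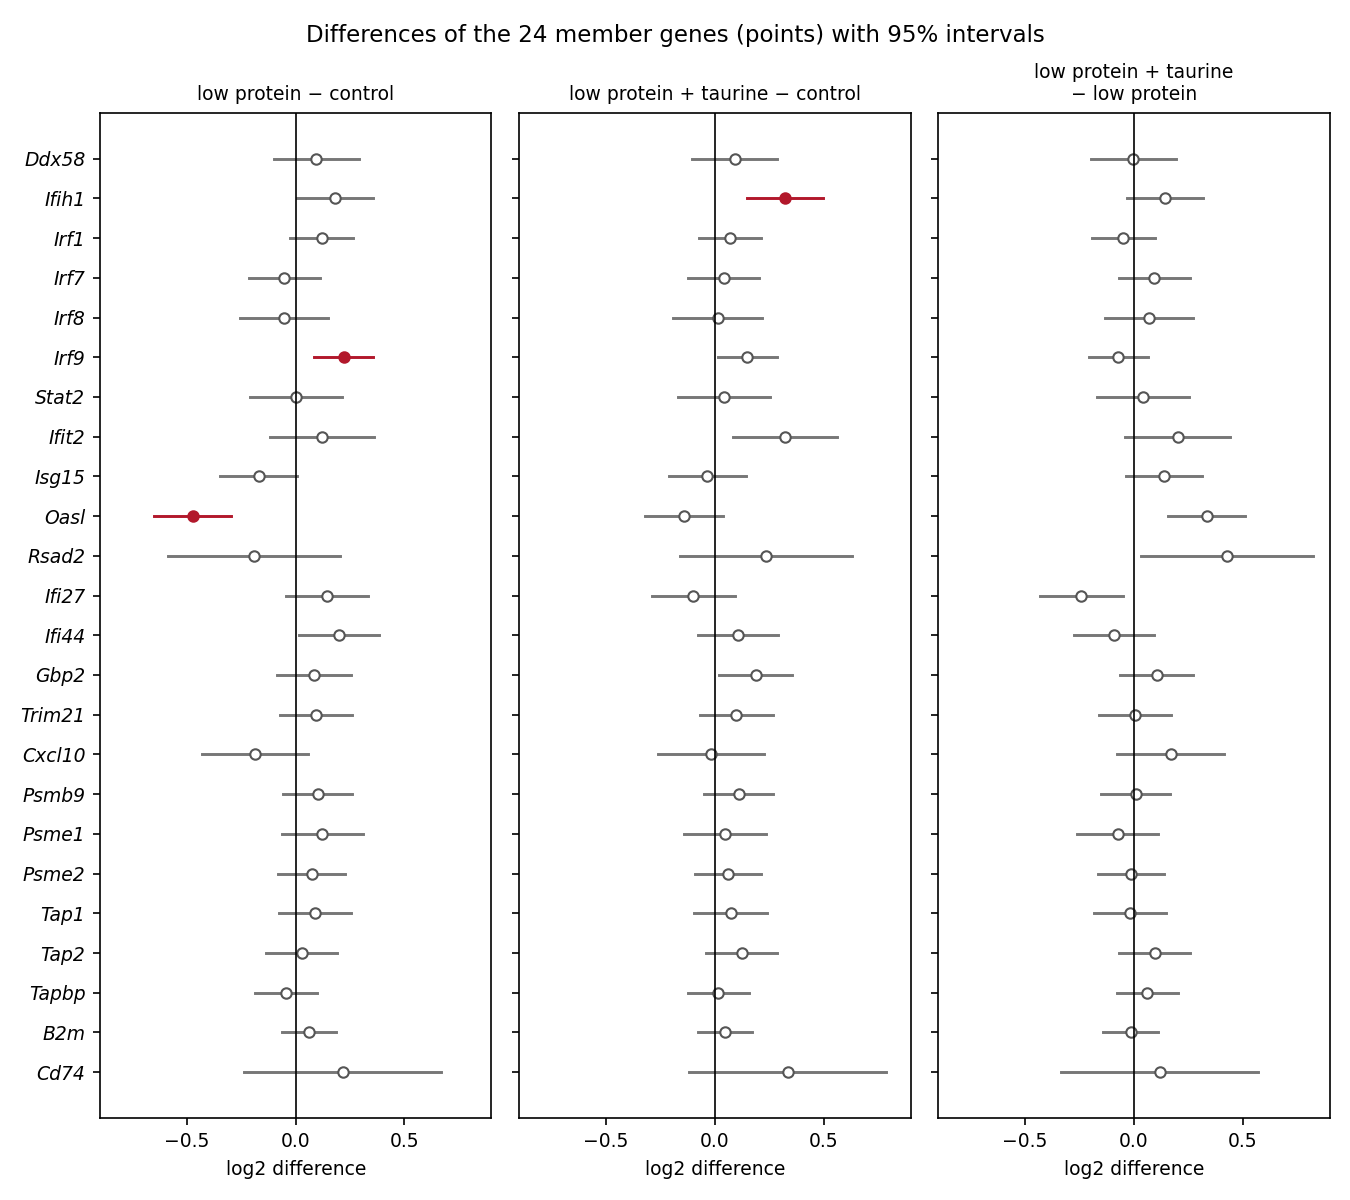
Log2 difference (horizontal axis) of each of the 24 genes (vertical axis) in the 3 comparisons, with 95% limma intervals as lines and red for an adjusted p under 0.05. Red marks Irf9 and Oasl in the low protein comparison and Ifih1 in the taurine comparison, and no gene is red between taurine and low protein.

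Cd74 (probe set 10802013), the invariant chain that guides MHC class II molecules and blocks their groove, had the widest range of the 24 genes. It read 7.97, 7.94, 7.64 and 7.86 in control 1 to 4, 8.58, 7.86, 7.88 and 7.96 in low protein 1 to 4, and 8.72, 8.36, 8.04 and 7.63 in taurine 1 to 4. The highest arrays were taurine 1, low protein 1 and taurine 2, and taurine 4 was the lowest of the 12. The difference from control was 0.22 with low protein (95% interval -0.24 to 0.67, limma adjusted p = 0.424) and 0.33 in the taurine group (-0.12 to 0.79, limma adjusted p = 0.262). The interval between taurine and low protein ran from -0.33 to 0.57. These intervals are too wide to tell a rise from a fall.

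RT1-Da, RT1-Ba, RT1-Bb, RT1-DMa and RT1-DMb encode MHC class II chains or proteins that load them, and were set beside Cd74 after their values had been seen. Taurine 1 was the highest array in 5 of these 5 genes. Low protein 1, taurine 1 and taurine 2 were the 3 highest arrays in 3 of 5, as in Cd74. RT1-Da was at 7.16 in taurine 1, 6.80 in low protein 1, 6.80 in taurine 2 and 6.25 in taurine 4. None of the 5 passed in any comparison. Points of 1 array share the same pooled RNA, so the genes are not independent readings.

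**Figure D5:**
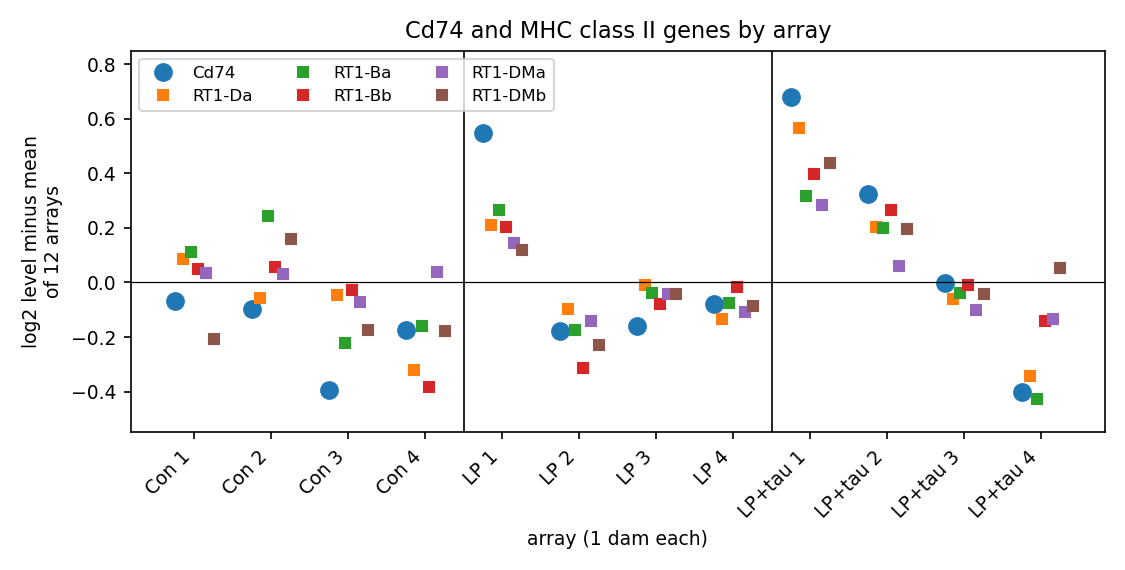
Log2 level minus the gene's mean over the 12 arrays (vertical axis) of Cd74 (circles) and 5 MHC class II genes (squares) by array (horizontal axis, 1 dam each). Taurine 1 is the highest array for Cd74 and for all 5 class II genes, and the arrays of 1 diet do not lie together.

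Of the other 87 genes listed for the pathway, 61 had a probe set, of which 12 rose (19.7%) and 2 fell with low protein (3.28%), beside the backgrounds of 21.8% and 11.9%. In the taurine group 4 rose (6.56%, background 10.2%) and 0 fell, and between taurine and low protein 0 passed. Among the 18 ligands, receptors and signalling genes with a probe set, 5 rose with low protein (27.8%). The background was 21.8% of all probe sets and 26.4% of those with a single gene symbol. Traf3, an adaptor of RNA sensing, rose by 0.37 (limma adjusted p = 0.00954), Tbk1 and Ikbke, the kinases that activate Irf3, by 0.26 and 0.17, Tlr7, the endosomal receptor of single-stranded RNA, by 0.23, and Il10rb, a chain shared by the receptors of interleukin-10 and interferon lambda, by 0.27. In the taurine group 3 of the 18 rose (16.7%, background 10.2%), Tbk1 by 0.28, Tlr7 by 0.32 and Il10rb by 0.19. Without control 3 and control 4, Traf3 (limma adjusted p = 0.0379) and Il10rb (0.013) still passed with low protein, and Tbk1 (0.105), Tlr7 (0.0893) and Ikbke (0.0872) did not. With low protein after cyclic loess, Traf3 (limma adjusted p = 0.0184), Tlr7 (0.0473) and Ikbke (0.0484) passed, and Il10rb (0.207) and Tbk1 (0.173) did not. Of the rises in the taurine group, none of Tbk1 (0.133), Tlr7 (0.068) and Il10rb (0.0675) passed without control 3 and control 4. After cyclic loess Tlr7 passed there (0.032), while Il10rb differed by 0.05 (0.611) and Tbk1 by 0.19 (0.109).

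Among the other induced genes, 5 of 21 rose (23.8%) and 1 fell (4.76%) with low protein, beside 21.8% and 11.9% of all probe sets. Among probe sets with a single gene symbol the background was 26.4% and 6.25%. The rises were of Ifitm2 (0.32) and Ifitm3 (0.33), membrane proteins that block viral entry, Eif2ak2 (0.28), the kinase PKR that stops translation, Adar (0.22), which edits double-stranded RNA, and Parp9 (0.26). Without control 3 and control 4, Eif2ak2 (limma adjusted p = 0.0211), Adar (0.0286) and Parp9 (0.0365) passed, and Ifitm2 (0.0602) and Ifitm3 (0.132) did not. After cyclic loess, Eif2ak2 (limma adjusted p = 0.0411) and Parp9 (0.0393) passed, and Adar (0.285), Ifitm2 (0.137) and Ifitm3 (0.175) did not. Oas3, an oligoadenylate synthetase, fell by 0.25 (limma adjusted p = 0.0126, and 0.0439 without control 3 and control 4). Its level, given by array after its values had been seen, was 6.74, 6.85, 6.80 and 6.75 in control 1 to 4, 6.64, 6.36, 6.54 and 6.61 in low protein 1 to 4, and 6.62, 6.66, 6.67 and 6.67 in taurine 1 to 4. Like Oasl, its low protein arrays lay below all controls, and its taurine arrays lay below all controls too. Oasl2 and Oas1f, 2 further relatives looked up after the values had been seen, differed by -0.10 and 0.03 with low protein (limma adjusted p = 0.523 and 0.763).

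Among 22 other genes of antigen processing, 2 rose (9.09%) and 1 fell (4.55%) with low protein, beside 21.8% and 11.9% of all probe sets. Erap1, which trims peptides, rose by 0.30 and the constitutive proteasome subunit Psmb7 by 0.23. Ciita, the master activator of MHC class II genes, fell by 0.20 (limma adjusted p = 0.0368). Psmb7 also rose in the taurine group, by 0.18, as 1 of the 22 (4.55%, background 10.2%). Without control 3 and control 4 the call of Erap1 held with low protein (limma adjusted p = 0.00829), and those of Psmb7 were lost with low protein (0.0575) and in the taurine group (0.205). The fall of Ciita was lost there too (0.13), as it was after cyclic loess (-0.11, limma adjusted p = 0.222) and with the replicate block (0.0508). Cyclic loess also lost the low protein calls of Erap1 (0.15, limma adjusted p = 0.206) and Psmb7 (0.14, 0.067).

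Over the 61 genes, the rises with low protein numbered 6 after cyclic loess (9.84%, beside 4.98% of all probe sets), 6 after median centring (9.84%, beside 7.94%) and 7 without control 3 and control 4 (11.5%, beside 10.8%). The share was below the background with all arrays as deposited and with the replicate block (10 genes, 16.4%, beside 18.7%). It was above the background of all probe sets in the other 3 settings, by little without control 3 and control 4. Among probe sets with a single gene symbol, 26.4% rose and 6.25% fell with all arrays as deposited. Their shares are not given for the other settings, so the relation there may turn on the background chosen. Whether these shares differ from the background was not tested. The falls in the same 3 settings numbered 2 (3.28%, beside 8.54%), 3 (4.92%, beside 19.1%) and 1 (1.64%, beside 8.78%). Traf3 and Eif2ak2 rose and Oas3 fell in each of these 3 settings, whereas Ifitm3 and Tbk1 passed in none of them. Rises in the taurine group were Tlr7 alone after cyclic loess (1.64%, beside 1.76%), none after median centring (beside 3.16%), and Erap1 alone without control 3 and control 4 (1.64%, beside 2.07%), a gene that did not pass with all arrays.

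Socs3, a feedback inhibitor of cytokine receptors looked at after its values had been seen, read 7.79, 7.76, 6.88 and 6.79 in taurine 1 to 4, between 6.81 and 7.23 in control and between 6.81 and 7.20 with low protein, and it did not pass in the taurine group (0.32, limma adjusted p = 0.289). As in Rsad2, taurine 1 and taurine 2 were the highest of the 12 arrays. Ifi47, an immunity-related GTPase also looked at after its values had been seen, was at 8.14 in control 3 and 9.36 in control 4, the arrays with high hepatocyte markers, and between 6.90 and 7.38 elsewhere (difference -0.74 with low protein, limma adjusted p = 0.159).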

How the data were processed

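Levels of 29214 probe sets were deposited for 12 arrays, 4 per maternal diet, and the authors kept 18957 as detected where at least 50% of each group detected them, per the descriptions deposited with the tables. The deposited log2 values were made by the authors with RMA in R 3.2.2, per the submitters' processing notes. The version of RMA is not given in the sources used here, nor is a genome build. The authors' deposited tables of selected probe sets, chosen with SAM at a false discovery rate of 1%, hold p-values, linear intensity means of each group and the ratio (fold) of these means, per the file headers. The methods' t-test is named in the deposited descriptions.

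From the log2 values, 1 limma 3.58.1 fit (R 4.3.3) with 3 group means was made over all 18957 probe sets, with eBayes, two-sided p-values and Benjamini-Hochberg adjustment. No further filter or scaling was applied. Members, roles, pathway genes and markers were chosen with earlier results of these data known. Symbols came from the platform annotation, which names 11721 probe sets with 1 symbol (11053 genes) and none outside the detected table, so the table of all probe sets holds the same member probe sets. Values on every array were given for members past the threshold, for members without overlap between groups and for the 2 members with the widest range. Other pathway genes were given as counts, with differences for those that passed, and genes described as chosen after their values had been seen, such as Oas3 and Ifi47, fall outside this rule. Promoters were read from RefSeq tables of build GRCr8. On simulated data for low protein against control with 18957 probe sets, 89% of changes of 0.5 and 96% of changes of 1 (log2) were recovered, with 8 false calls among 193. The simulation changed 200 probe sets under independent noise, far fewer than were called in the arrays. Every difference of the 24 genes was smaller than 0.5, so these rates do not tell how often such differences are found. The number of arrays limits the precision.

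Replicate numbers stand for different dams. Deviations of same-numbered arrays correlated above 0.1 in 3 of 12 pairs, so arrays were not paired. Alternatives comprised the eBayes trend, the replicate block, fits of only 2 groups, quantile normalization, median centring, cyclic loess (3 iterations), all 29214 probe sets, a level filter, a threshold of 0.1, leaving out each array, and leaving out control 3 and control 4. Leaving out taurine 1 and taurine 2 and the methods' t-test were added after seeing the data. Array dates or batches were not found among the labels.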

Additional observations from a re-analysis of the deposited data

Results flagged for a closer look

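Of 72 groups of 4 arrays (24 genes in 3 diets), 1 held an array far from the other 3, where chance alone marks about 1 group in 20. This was Cd74 in the low protein group, where low protein 1 stood at 8.58 and the other 3 arrays between 7.86 and 7.96. The gap was 0.866 of the range of the group, above Dixon's critical value at the 95% level for 4 values.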

How the results depend on the processing

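The count of genes higher with low protein (1) became 2 with the replicate block, 0 with median centring, 0 with cyclic loess, 3 at a threshold of 0.1, and 0 to 1 when each array was left out in turn. It stayed at 1 with quantile normalization and without control 3 and control 4, but the gene was then Ifih1 instead of Irf9. The count lower with low protein (1) became 2 with median centring, as Isg15 passed beside Oasl, and 0 with the level filter, which keeps 7 of the 24 genes and drops Oasl. The count higher with taurine (1) became 0 with only the groups compared, median centring, the level filter, the methods' t-test, and without taurine 1 and taurine 2, became 2 at a threshold of 0.1, and ran from 0 to 2 when each array was left out. The count lower with taurine (0) became 1 without taurine 1 and taurine 2, where Oasl passed (-0.30, limma adjusted p = 0.0332). Oasl was higher in taurine 1 and taurine 2 (6.80 and 6.64) than in taurine 3 and taurine 4 (6.47 and 6.35). Leaving out this pair, chosen after values had been seen, was therefore bound to lower its taurine mean, and that call is no evidence of a fall. Between taurine and low protein it was 0 in each direction under all these settings. Except where an alternative holds fewer genes or arrays, the cause was not tested.

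With the replicate number as a block (the pairing of arrays), the limma adjusted p was 0.0116 for Oasl, 0.026 for Irf9 and 0.0482 for Ifi44 with low protein, and 0.0432 for Ifih1 with taurine. The threshold was passed by Oasl in 23 of 23 alternatives (differences -0.56 to -0.38, limma adjusted p 0.0024 to 0.0212), by Irf9 in 18 of 24 (0.11 to 0.25, limma adjusted p 0.014 to 0.249) and by Ifih1 in 16 of 23 (0.26 to 0.45, limma adjusted p 0.0137 to 0.119), and 0 of them changed sign. Some of these settings could hardly lose a call. A threshold of 0.1 keeps every call, and leaving out arrays of the group outside the comparison leaves the difference unchanged. The call of Irf9 was lost after quantile normalization, median centring and cyclic loess.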
